A study of Mus musculus with 27 samples.

Results

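A/J, BALB/cJ and C3H/HeJ are inbred mouse strains with ancestry in the Bagg albino stock. Their lung expression was compared with that of MRL/MpJ, KK/HlJ, DBA/2J, C57L/J, C57BL/6J and 129S1/SvlmJ across all genes. The strains were assigned to the sets by recorded ancestry, which the labels do not give. The rule itself uses no measured value, but the sets were chosen with earlier results of these data known. The 3 descendants account for 9 of the 27 arrays of the series, and the 6 other strains for 18. Each strain was represented by 3 female mice aged 11 weeks, whose right lung is labelled as normal. RNA was hybridised to Mouse Gene 1.0 ST arrays, and the study asked how strains that differ in later spontaneous lung adenomas differ in early expression. That labelled outcome does not follow the ancestry. A/J is labelled with increased adenoma severity and frequency, and BALB/cJ and C3H/HeJ with increased severity and decreased frequency. Among the other strains C57BL/6J and DBA/2J carry the A/J combination, 129S1/SvlmJ and C57L/J that of BALB/cJ, and KK/HlJ and MRL/MpJ are decreased in both.

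Bagg albino mice were an early laboratory stock. BALB/c descends from it directly, the A strain from a cross with the Cold Spring Harbor albino stock, and C3H from a cross with a DBA male, while MRL carries some C3H ancestry. Strains with a common founder can hold the same founder haplotype at a locus, so that a variant there which alters the transcript of a gene is present in all of them, whatever their differences elsewhere. Mice of 1 inbred strain are near-identical genetically, so the strain and not the mouse was the unit of comparison: 3 strain means were set against 6 strain means.

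The deposited values are log2 signals, so a difference of 1 is a doubling of signal. They ran from 1.78 to 13.35, with array medians from 6.24 to 6.37. Lung identity was clear on every array: Sftpc, the surfactant protein C gene of alveolar type II cells, read 12.98 to 13.35, Scgb1a1 of club cells 12.51 to 13.02, Ager of alveolar type I cells 11.49 to 12.05, and Cldn5 of endothelium 10.54 to 11.03. Arrays of 1 strain correlated at 0.984 to 0.997 over all genes, and arrays of different descendants at 0.981 to 0.993. Descendant arrays correlated with arrays of the other strains at 0.9765 to 0.9922, a range that overlaps both. C3H/HeJ replicate 2 stood apart. Its 15 skeletal muscle genes lay a median of 3.62 above the mean of the 6 other strains and its 12 fat cell genes 2.30 above it, against 0.16 and 0.04 for muscle and -0.09 and 0.28 for fat in C3H/HeJ replicates 1 and 3. Fat cell genes were also raised on C57L/J replicate 3 (1.57), 129S1/SvlmJ replicate 3 (0.80) and A/J replicate 1 (0.77). By correlation the nearest array to C3H/HeJ replicate 3 came from A/J, whereas 26 arrays had a neighbour of their strain. The array names also carry a run number whose meaning is not stated. The numbers of the descendants followed those of KK/HlJ, C57BL/6J, C57L/J, DBA/2J and 129S1/SvlmJ and lay on both sides of the first MRL/MpJ numbers. Most strains held a stretch of their own, so run order and strain cannot be told apart, and MRL/MpJ alone of the other set lay among the descendants.

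A single gene separated the descendants from the other strains by the test. Its high level in these 3 strains was already known from these data when the sets were formed, so the test of this gene is not independent of the choice of sets. Baiap2l1 encodes an adaptor with a membrane-bending inverse BAR domain that links Rac and insulin receptor signalling to actin (Entrez Gene 66898). Its log2 signal was 10.43, 10.46 and 10.42 in the A/J mice, 10.45, 10.29 and 10.53 in the BALB/cJ mice, and 10.05, 9.77 and 10.16 in the C3H/HeJ mice. In the 18 mice of the other strains Baiap2l1 ran from 7.49 through a median of 7.95 to 8.16. The lowest descendant thus lay well above the highest mouse of any other strain. The strain means of Baiap2l1 were 10.44, 10.42 and 9.99 against 7.68 in MRL/MpJ to 8.08 in 129S1/SvlmJ, a difference of 2.36 (SE 0.11, n = 3 and 6 strains), or 5.12-fold, with an adjusted p of 2.90e-05 (limma on strain means, Benjamini-Hochberg over 20239 genes). Without C3H/HeJ replicate 2 the difference in Baiap2l1 was 2.39, with an adjusted p of 6.85e-06, and with run number as a covariate it was 2.42, with an adjusted p of 5.25e-04 (limma on strain means). C3H/HeJ was the lowest of the 3 descendants for Baiap2l1, and the F test among them passed (adjusted p = 0.012, limma on 27 arrays).

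Of 20239 genes tested, Baiap2l1 was the only one called in either direction (0.00494%), which is also the share called higher (0.00494%). No gene was called lower (0%) by limma on strain means, although 399 genes had a lower mean at an unadjusted p under 0.05 (1.97%) and 370 a higher one (1.83%), together 769 (3.8%). When the spread was instead taken between mice of a strain, limma on 27 arrays called 1465 genes (7.24%), 606 of them higher (2.99%) and 859 lower (4.24%). That fit asks about these 9 strains alone and leaves out how strains vary within a set. The 3 descendants also differed among themselves: the F test over their 3 means passed for 1868 genes (9.23%).

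The start of Baiap2l1 is shown because it is the 1 gene that passed the test. The stretch below is the 250 bases before its RefSeq start site, read on the minus strand at chr5:144358113-144358362 of GRCm38.p6, the C57BL/6J reference and hence a strain with the low Baiap2l1 signal. Capitals mark the GC box, searched as GGGCGG and CCGCCC on both strands with overlaps allowed.
Baiap2l1 upstream: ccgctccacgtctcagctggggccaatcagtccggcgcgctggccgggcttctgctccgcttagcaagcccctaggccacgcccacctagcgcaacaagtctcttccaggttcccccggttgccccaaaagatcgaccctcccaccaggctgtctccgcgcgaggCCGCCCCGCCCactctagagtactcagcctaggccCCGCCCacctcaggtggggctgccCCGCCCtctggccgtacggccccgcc
This window holds 4 copies of the GC box, 21 CpG and 70.4% G or C, and no TATAAA. Among 32536 upstream windows of 250 bases in the same table, 33.0% held a GC box, 4.12% held at least 4, 12.3% held TATAAA, and the medians were 6 CpG and 52.4% G or C. These are descriptions of the reference letters. The sequence of the 3 descendants was not analysed here.

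**Figure D1:**
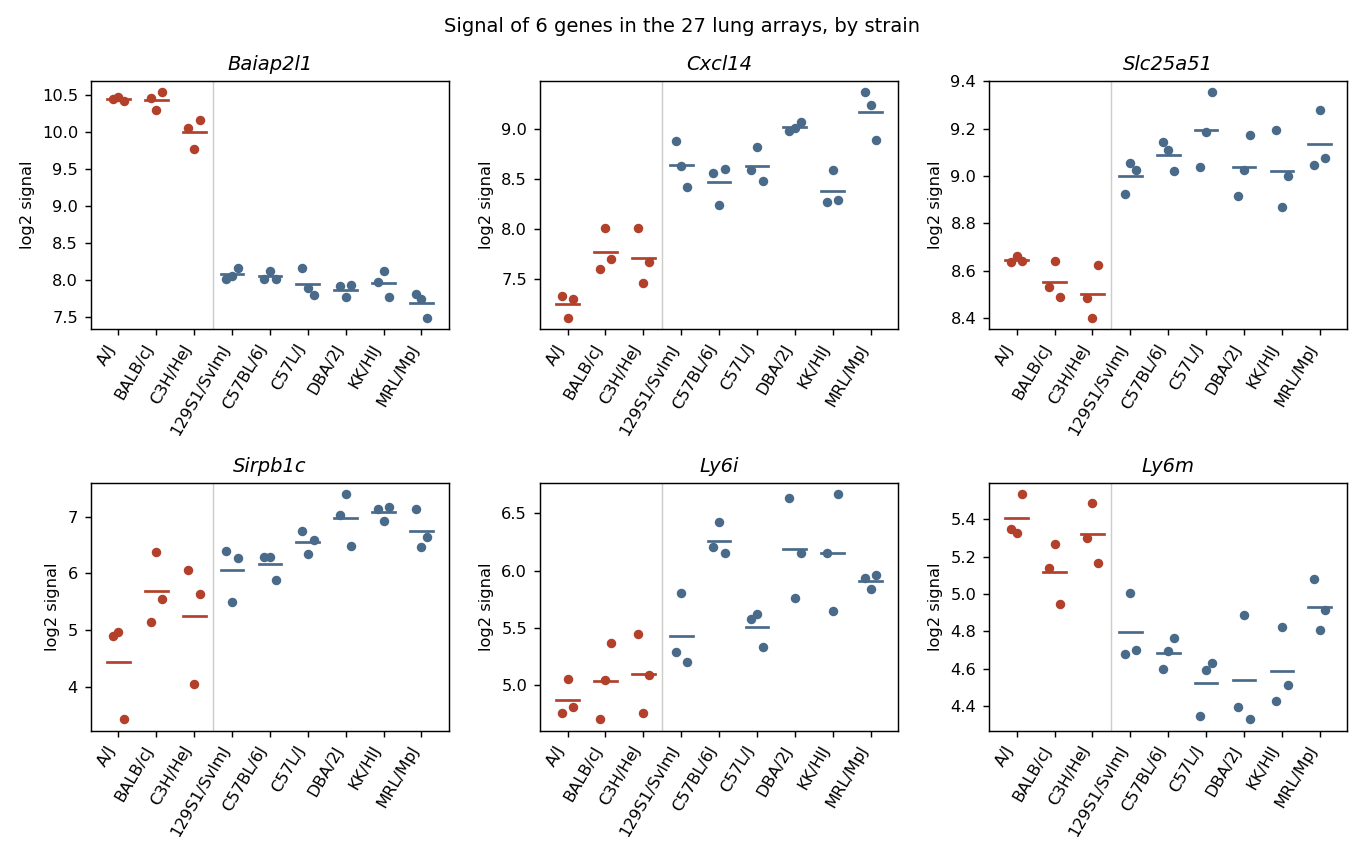
The log2 signal of 6 genes (vertical axes, each with its own range) is plotted for all 27 mice by strain, with points for mice and bars for strain means. Baiap2l1, Cxcl14 and Slc25a51 show no overlap between the 9 mice of A/J, BALB/cJ and C3H/HeJ (red) and the 18 others (blue), whereas single mice overlap for Sirpb1c, Ly6i and Ly6m.

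The mean of every descendant lay on 1 side of every other strain, with a difference of at least 0.5, for 34 genes (0.168%). Of these 12 were higher (0.0593%) and 22 lower (0.109%). With no minimum difference the count was 403 (1.99%), with 211 higher (1.04%) and 192 lower (0.949%). Besides Baiap2l1, differences among the 34 reached 1.47 in size, and none of these other 33 genes passed the test. Their values are given as descriptions. The 3 smallest differences inside the limit were those of Apol10b (-0.50), Rcsd1 (0.50) and Ston1 (-0.50), and the nearest outside were Coro2a (-0.49), Proz (0.49) and Frmpd1 (-0.48). Without C3H/HeJ replicate 2 the pattern held for 26 of the 34, and 29 genes showed it in all. At the level of single mice, 7 genes separated all 9 descendants from all 18 others (0.0346%), whatever the size: Baiap2l1, Slc25a51, Cxcl14, Tdrd3, Tspan8, Lman2 and Tifa. The F test among the 3 descendants passed for 8 of the 34 genes, against 9.23% of all genes. In 4 of the 34 (Ly6a2, Prl2c5, Tnfsf9 and Myl1) both set means lay under 5.25, the highest strain mean of a Y-linked gene (Sry) in these females.

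**Figure D2:**
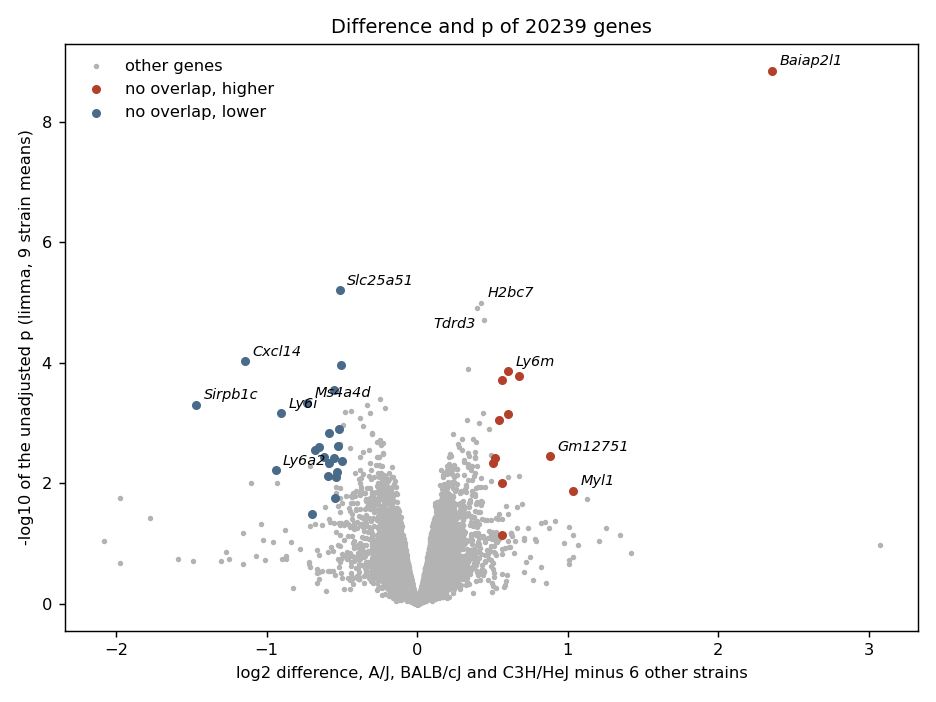
Each of 20239 genes is placed by its log2 difference between the means of the 3 descendants and the 6 other strains (horizontal) and by the -log10 of its unadjusted limma p (vertical). Baiap2l1 stands alone at 2.36. Coloured points are the 12 higher and 22 lower genes whose strain means do not overlap and differ by at least 0.5.

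Next to Baiap2l1 in p came 3 genes with an adjusted p of 0.0617 (limma on strain means). Slc25a51 encodes the mitochondrial NAD carrier. It read 8.64, 8.66 and 8.64 in A/J, 8.53, 8.64 and 8.49 in BALB/cJ and 8.48, 8.40 and 8.62 in C3H/HeJ, against 8.87, 9.05 and 9.35 as the lowest, median and highest of the 18 other mice. No mouse overlapped for Slc25a51, and the difference of strain means was -0.51 (SE 0.06). Tdrd3, a Tudor domain protein that reads methylated arginine and works with topoisomerase 3b, read 8.89 to 9.11 in the descendants, with a median of 8.97, and 8.40 to 8.71 in the others, with a median of 8.59. The Tdrd3 difference was 0.39 (SE 0.05), again with no overlap of mice. H2bc7, a histone H2B gene, had a difference of 0.42 (SE 0.05), and its mice overlapped. Fold changes were 1.43 for Slc25a51, 1.31 for Tdrd3 and 1.34 for H2bc7. Leaving out 1 array at a time moved the adjusted p of Slc25a51 between 0.0357 (without C57L/J replicate 3) and 0.107, that of Tdrd3 between 0.0423 and 0.14, and that of H2bc7 between 0.0423 and 0.791, so their side of the limit rests on single arrays.

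Tspan8, a tetraspanin, Lman2, a lectin that carries glycoproteins out of the endoplasmic reticulum, and Tifa, an adaptor between TRAF6 and NF-kB, completed the genes with no overlap of mice. They fall outside the naming rule and were chosen after their values were seen. Tspan8 read 9.70 to 10.04 in the descendants and 10.05 to 10.45 in the others, a difference of -0.33 (SE 0.07, adjusted p = 0.614). Lman2 read 8.47 to 8.76 against 8.79 to 8.93, a difference of -0.21 (SE 0.04, adjusted p = 0.614). Tifa read 7.30 to 7.55 against 6.25 to 7.30, a difference of 0.37 (SE 0.11, adjusted p = 0.999). The sets came within a narrow margin of each other for Tspan8, Lman2 and Tifa.

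After Baiap2l1, the widest gap between the nearest strain means of the sets among the 34 genes, 0.61, was that of Cxcl14, a chemokine made by epithelium and fibroblasts. Cxcl14 read 7.33, 7.11 and 7.30 in A/J, 7.59, 8.01 and 7.70 in BALB/cJ, and 8.0, 7.46 and 7.67 in C3H/HeJ. The 18 other mice ran from 8.24 through 8.61 to 9.36, so that no mouse overlapped. The strain means of Cxcl14 were 7.25, 7.77 and 7.71 against 8.38 in KK/HlJ to 9.16 in MRL/MpJ. The difference was -1.14 (SE 0.18), or 2.21-fold, which was not called on strain means (unadjusted p = 9.44e-05 from limma, adjusted p = 0.311). It passed with the spread taken between mice (adjusted p = 3.3e-10, limma on 27 arrays), as did 7.24% of all genes. Of the 34 separated genes, 33 passed in that fit, which leaves out how strains vary within a set. They were chosen from the same arrays for separated strain means, so this count is no independent support. A/J was the lowest of the 3 descendants for Cxcl14, and the F test among them gave an adjusted p of 0.044 (limma).

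Sirpb1c belongs to the signal regulatory proteins, paired receptors of myeloid cells. Its values were spread widely: 4.90, 4.97 and 3.43 in A/J, 5.14, 6.37 and 5.55 in BALB/cJ, 6.05, 4.05 and 5.63 in C3H/HeJ, and 5.50 to 7.40 in the others with a median of 6.53. The highest BALB/cJ and C3H/HeJ mice overlapped the others for Sirpb1c. Strain means were 4.44, 5.69 and 5.25 against 6.05 to 7.07, a difference of -1.47 (SE 0.29, adjusted p = 0.614). Without C3H/HeJ replicate 2, whose Sirpb1c value of 4.05 was the lowest of its strain, the difference was -1.27. Gm5150, which is the next gene in the reference order, went the other way, with 5.69 to 6.22 in the descendants and 4.94 to 6.10 in the others and a difference of 0.56 (SE 0.10, adjusted p = 0.350). Probe sets of near-identical genes such as these can share signal, which was not tested.

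The Ly6 genes encode small GPI-anchored surface proteins of blood cells, endothelium and epithelium, and several of those lying next to each other were among the separated genes. Ly6m read 5.35, 5.33 and 5.54 in A/J, 5.14, 5.27 and 4.95 in BALB/cJ and 5.30, 5.49 and 5.17 in C3H/HeJ, against 4.33 to 5.08 in the others, a difference of 0.60 (SE 0.10, adjusted p = 0.311). Ly6i went the other way. It read 4.76, 5.05 and 4.81 in A/J, 4.70, 5.05 and 5.37 in BALB/cJ, and 5.44, 4.76 and 5.09 in C3H/HeJ, against 5.20 to 6.67 in the other mice. The Ly6i difference was -0.90 (SE 0.19, adjusted p = 0.614). Ly6a2 read 3.63 to 4.22 in the descendants and 3.86 to 6.04 elsewhere, a difference of -0.94 (SE 0.27, adjusted p = 0.999).

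For Ly6c1, a marker of monocytes and endothelium, the mean of every other strain lay under the descendants, with C57L/J far under the rest. It read 12.23 to 12.49 in the descendants and, as strain means, 12.05 in 129S1/SvlmJ, 12.15 in C57BL/6J, 12.19 in DBA/2J, 11.82 in KK/HlJ, 11.97 in MRL/MpJ and 10.72 in C57L/J. The Ly6c1 difference of 0.56 had an SE of 0.28. C57L/J was also the outlier for Ly6d and Ly6e, but in the direction of the descendants. Ly6d means were 6.18, 6.22 and 6.44 in A/J, BALB/cJ and C3H/HeJ and 6.05 in C57L/J, against 7.46 to 7.94 in the remaining 5 strains. Ly6e means were 11.01, 11.12 and 11.21 and 10.91 in C57L/J, against 11.62 to 11.81 in the other 5. Thus Ly6d (difference -1.10, SE 0.35) and Ly6e (-0.45, SE 0.17) did not separate the sets by ancestry.

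Other separated genes with lower means in the descendants had the following values. Ms4a4d, a membrane protein of the CD20 family, read 7.41 to 8.20 against 8.05 to 8.81, a difference of -0.73 (SE 0.14). Its C3H/HeJ mean of 8.01 was nearer to the lowest other strain, C57BL/6J at 8.16, than to A/J at 7.53. Ston1, an endocytic adaptor of the stonin family, read 6.44 to 7.14 against 7.08 to 7.57 (-0.50, SE 0.08). Best1, a chloride channel, read 4.59 to 5.16 against 4.93 to 5.70 (-0.56, SE 0.10), with MRL/MpJ the nearest of the other strains at 5.05. Slc39a4, the ZIP4 zinc importer, read 7.87 to 8.39 against 8.27 to 8.95 (-0.53, SE 0.13), and its BALB/cJ mean of 7.93 was under A/J at 8.26 and C3H/HeJ at 8.29. Flrt3, a leucine-rich repeat adhesion protein, read 7.76 to 8.55 against 7.99 to 9.25 (-0.65, SE 0.16). Single mice of the sets overlapped for all 5 of these genes, and none passed on strain means.

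Cyp3a13, a cytochrome P450 of drug and steroid oxidation, read 4.41 to 4.81 in the descendants and 4.64 to 6.04 in the others, with DBA/2J, at a mean of 4.78, just above A/J at 4.70. The Cyp3a13 difference was -0.68 (SE 0.17). Pcdhgb8 and Pcdhga3 are adhesion proteins of the gamma protocadherin cluster, whose members share their last exons. Pcdhgb8 had a difference of -0.52 (SE 0.12) and Pcdhga3 one of -0.56 (SE 0.15). Pcdhgb5 of the same cluster split the strains differently: it read 4.73, 4.54 and 4.51 in A/J, BALB/cJ and C3H/HeJ, a similar 4.67 in C57L/J and 4.88 in DBA/2J, and 7.31 to 7.61 in the other 4 strains. Its difference of -1.98 therefore carried an SE of 0.70. Apol10b, 1700028P14Rik and 9130230L23Rik had differences of -0.50, -0.58 and -0.62. The lower group was completed by Vegfc, a lymphatic growth factor (-0.58), Tnfsf9 (-0.54), Mpp7 (-0.59), Mctp1 (-0.55), Egfem1 (-0.54) and Cyb5d1 (-0.70), which fall outside the naming rule. The Cyb5d1 difference carried an SE of 0.28. Its means were 8.46 to 8.64 in C57BL/6J, C57L/J and KK/HlJ. In 129S1/SvlmJ, DBA/2J and MRL/MpJ they were 7.48 to 7.59, near the descendants' 7.25 to 7.43.

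Among the higher genes, Wfdc6a, a WAP-type protease inhibitor gene, read 4.91 to 5.76 in the descendants against 4.10 to 5.62 (0.67, SE 0.12). Tifab, an inhibitor of TIFA and TRAF6 signalling, read 6.53 to 7.13 against 5.90 to 6.69 (0.61, SE 0.13), highest in C3H/HeJ at a mean of 7.09. Rcsd1, which encodes the actin capping regulator CapZIP, read 7.80 to 8.19 against 6.94 to 7.92 (0.50, SE 0.14), with low means of 7.17 in C57L/J and 7.15 in DBA/2J. Gm12751 (0.88, SE 0.23), Olfr920 (0.56, SE 0.18) and Prl2c5 (0.52, SE 0.14) completed the group together with Myl1. Myl1, a myosin light chain of fast muscle, owed its difference of 1.04 to 1 array: it read 9.16 in C3H/HeJ replicate 2, 4.56 at most in the 8 other descendant mice, and 0.48 remained without that array.

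Mir30c-2 was the only microRNA gene among the separated ones. It read 6.47, 6.44 and 5.99 in A/J, 6.03, 5.83 and 6.06 in BALB/cJ and 6.63, 6.35 and 6.23 in C3H/HeJ, against 4.98 to 6.24 in the others. The Mir30c-2 difference was 0.54 (SE 0.12, adjusted p = 0.696). The array reads the precursor, not the mature strands, which RefSeq (GRCm38.p6) gives as follows, with the seed, bases 2 to 8, in capitals. They are shown because the seed decides which messages a microRNA pairs with.
mmu-miR-30c-5p: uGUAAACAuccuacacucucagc
mmu-miR-30c-2-3p: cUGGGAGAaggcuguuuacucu
Among the RefSeq mature strands searched, which need not hold the whole family, the first strand has the seed of miR-30a-5p, miR-30e-5p and miR-384-5p. Of the other probe sets found this way, Mir30e differed by 0.14 (SE 0.10), Mir30c-1 by 0.10 (SE 0.08), Mir30a by -0.26 (SE 0.42) and Mir384 by -0.01 (SE 0.05).

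Genes with small p lay in part next to each other in the reference gene order. Of 156 genes with an unadjusted p under 0.01 (0.771% of all tested), 20, or 12.8%, had another within 5 places, in 8 groups, and 136 had none. Of all tested genes 7.12% had such a gene within 5 places. These groups, windows and limits were chosen after seeing the data, and no gene in them passed the test. The largest group held 4 genes around Slc25a51. Frmpd1 (-0.48, SE 0.10), a scaffold of G protein signalling, and Exosc3 (-0.36, SE 0.09), a subunit of the RNA exosome, were lower like Slc25a51. Trmt10b (0.24, SE 0.05), a tRNA methyltransferase, was higher. Among the 17 tested genes centred on Slc25a51, 5 had an unadjusted p under 0.05, against 3.8% of all genes, the fifth being Shb (-0.20, SE 0.06). The window was chosen for its small p values.

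Cxcl14 lay within 5 places of Tifab (0.61) and Catsper3 (0.30, SE 0.07), a sperm calcium channel gene at a signal of 4.33 in the descendants and 4.03 in the others. Signs were mixed there as they were around Slc25a51. Of the 17 tested genes around Ly6m, 6 had an unadjusted p under 0.05, against 3.8% of all genes. They were the Ly6 group of Ly6m, Ly6i and Ly6a2, together with Ly6d, Ly6e and Ly6g (0.30, SE 0.13). That window was also chosen for its small p values. The remaining groups were pairs: Sirpb1c with Gm5150, Cyp3a13 (-0.68) with Zscan21 (-0.23), Sapcd1 (0.34) with Ly6g6c (-0.36), Mcf2l (0.38) with Proz (0.49), and Cldn18 (-0.31) with Slc35g2 (-0.93). Mcf2l and Proz, the latter encoding the vitamin K-dependent protein Z, were the 1 pair that was higher on both sides. Among the 17 tested genes centred on Baiap2l1, it was the only 1 with an unadjusted p under 0.05, and like most genes under 0.01 it had no other such gene near it.

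**Figure D3:**
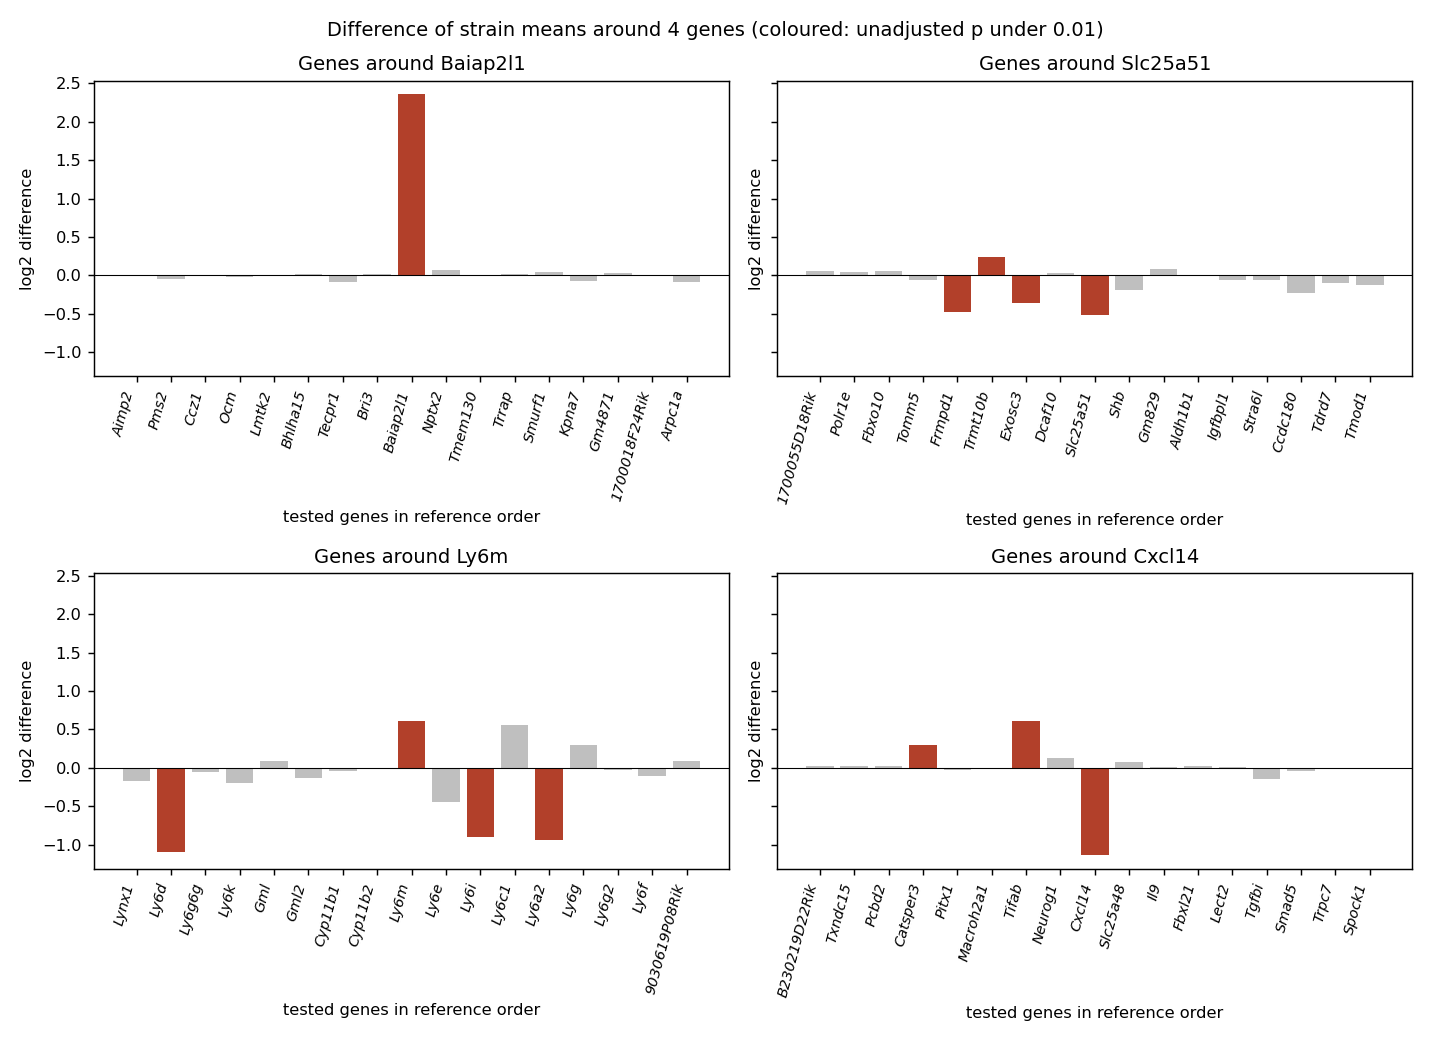
Bars give the log2 difference of the 3 descendants from the 6 other strains for 17 tested genes in reference order around Baiap2l1, Slc25a51, Ly6m and Cxcl14, and coloured bars have an unadjusted limma p under 0.01. Baiap2l1 is the only coloured bar of its window. The other 3 windows were chosen because they hold several genes with small p values, and their coloured bars have both signs.

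Cell type and pathway lists were described by their members' differences, and no member of any of the 37 lists was called on strain means. Over all genes the median difference was 0.0067, with 10823 higher and 9416 lower. In whole lung, fewer cells of a type and less RNA per cell cannot be told apart. The 12 alveolar type I genes were all lower, with a median of -0.18 (-0.13 without C3H/HeJ replicate 2). By strain that median was -0.08 in A/J, -0.19 in BALB/cJ and -0.10 in C3H/HeJ. On single arrays the list median ran from -0.28 to -0.04 in the descendants and from -0.27 to 0.30 in the other strains. The DBA/2J arrays (-0.11, -0.05 and -0.08) lay within the descendants' range. Of the 12 genes, Cldn18 (-0.31, SE 0.09), the tight junction protein of alveolar epithelium, had the smallest p. Cldn18 read 10.86 to 11.42 in the descendants and 11.21 to 11.83 in the others. Aqp5, the water channel of these cells, differed by -0.21, Rtkn2 by -0.30 and Ager by -0.12. Of the 12, 3 passed as lower with the spread taken between mice, against 4.24% of all genes, and the alveolar type II list stood at a median of 0.02.

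Goblet and mucus genes had the highest median of any lung cell list, 0.44, with 10 of 11 higher (0.40 without C3H/HeJ replicate 2). That median was not shared alike: it was 0.48 in A/J and 0.57 in BALB/cJ but 0.01 in C3H/HeJ. Muc5b, the gel-forming mucin of the airways, read 8.87, 8.69 and 8.48 in A/J, 7.80, 8.0 and 8.25 in BALB/cJ and 7.31, 7.63 and 7.31 in C3H/HeJ, against 6.54 to 8.19 in the others. Pigr, which carries IgA across epithelium, was 9.04 in A/J and 8.33 and 8.26 in BALB/cJ and C3H/HeJ as means. Their differences of 0.63 (SE 0.31) and 0.45 (SE 0.24) did not pass, and among the descendants A/J led in both.

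Of 9 mast cell and basophil genes, 8 were higher, with a median of 0.17 (0.16 without C3H/HeJ replicate 2). Hdc was lower (-0.20), and Kit (0.22), Mcpt8 (0.14), Fcer1a (0.08) and Ms4a2 (0.01) had higher means. The 4 with an unadjusted p under 0.05, against 1.83% of all genes higher at that limit, were proteases of mast cell granules: Mcpt4 (0.37), Cpa3 (0.34), Tpsb2 (0.32) and Cma1 (0.17). For Mcpt4, Cpa3 and Cma1 both set means lay under 5.25, the highest strain mean of a Y-linked gene. C3H/HeJ replicate 2, the array with muscle and fat transcripts, was the highest of its strain in all 4 proteases, with 5.09 for Mcpt4 and 5.51 for Cpa3. Without it the differences were 0.25, 0.22, 0.27 and 0.11. The part that this array's other tissue had in the values was not tested beyond leaving it out.

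Of 18 genes of the circadian clock, 13 were higher and 5 lower, with a median of 0.15. The period genes Per1 (0.56, SE 0.24), Per2 (0.36, SE 0.15) and Per3 (0.39, SE 0.15), which repress the clock's activators, were higher at an unadjusted p under 0.05, as was Bhlhe40 (0.23, SE 0.10). Over all genes 1.83% were higher and 1.97% lower at that limit. Npas2, 1 of the activators, was lower (-0.46, SE 0.20), and Arntl differed by -0.42. Per1 read 7.27 to 7.89 in the descendants and 6.26 to 7.92 in the others. C57BL/6J (6.38), DBA/2J (6.59) and MRL/MpJ (6.76) were low for Per1, while C57L/J (7.58) and 129S1/SvlmJ (7.36) lay near the descendants. The hour of tissue collection is not given in the labels, and its part in these values was not tested.

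The MHC genes differ among inbred strains by H2 haplotype, and A/J, BALB/cJ and C3H/HeJ carry different ones as wholes. Whether they share alleles at single MHC genes was not examined here. Of 12 class II genes 10 were lower, with a median of -0.18. H2-DMa (-0.32, SE 0.10), a chaperone of peptide loading, and H2-Ab1 (-0.58, SE 0.25), a beta chain, had an unadjusted p under 0.05. Of all genes 1.97% were lower at that limit. H2-Ab1 means were 9.20, 9.09 and 9.48 against 9.06 in MRL/MpJ to 10.35 in 129S1/SvlmJ. H2-Ea, an alpha chain gene, had the largest difference of all 20239 genes, 3.07, with an SE of 1.72. It read 10.94, 11.13 and 11.18 in the descendants, and 10.92 to 11.42 in C57L/J, DBA/2J and MRL/MpJ, but 4.79 to 4.90 in 129S1/SvlmJ, C57BL/6J and KK/HlJ, so that no strain lay between these levels and the sets overlapped. Tapbp of class I peptide loading differed by -0.15 (SE 0.07).

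No candidate lung tumour gene was called. Over all genes 3.8% had an unadjusted p under 0.05. Of 9 genes of the Pas1 locus this was so for Casc1 (-0.18, SE 0.07) and the inositol trisphosphate receptor gene Itpr2 (0.18, SE 0.08). Among 15 candidates elsewhere this was so for Met (0.31, SE 0.09), the hepatocyte growth factor receptor, for Cdkn2b (-0.35, SE 0.15), a cyclin-dependent kinase inhibitor, and for Rps6 (-1.78, SE 0.74). Met read 9.09 to 9.39 in the descendants, and C57BL/6J with a mean of 9.23 reached C3H/HeJ at 9.23 while the remaining 5 strains stood at 8.76 to 8.96. Rps6, although a ribosomal protein gene, read a low 2.85 to 5.10 in the descendants and 3.23 to 7.24 in the others, and 129S1/SvlmJ at a mean of 3.95 lay with the descendants.

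The muscle list depended on a single array, and the fat list in part. All 15 skeletal muscle genes were higher with a median of 0.52, which was 0.03 without C3H/HeJ replicate 2, and all 12 fat cell genes were higher with a median of 0.40, or 0.13 without it. The fat cell median was 0.33 in A/J, -0.03 in BALB/cJ and 0.87 in C3H/HeJ. Fabp4, the fatty acid binding protein of fat cells, read 11.18 in C3H/HeJ replicate 2, 8.39 and 9.17 in replicates 1 and 3, and 6.86 to 10.43 in the 18 other mice. B cell genes were all 14 higher at a median of 0.13, or 0.03 without that array. By strain the B cell median was 0.36 in BALB/cJ, -0.02 in A/J and -0.0016 in C3H/HeJ. Cd72, a B cell coreceptor, kept a difference of 0.63 against 0.68 with it (SE 0.20), and C57BL/6J at 6.23 lay within the descendants' means of 6.09 to 6.52. Among all genes 3.8% had an unadjusted p under 0.05. Further list members at that limit were Fn1, fibronectin (0.37), Gpihbp1 (0.45), which anchors lipoprotein lipase to capillaries, Car4 (0.28) and Fpr2, a formyl peptide receptor (0.49). Others were Gbp2, an interferon-inducible GTPase (-0.45), the interferon-stimulated genes Ifit2 (-0.21) and Oas3 (0.22), Lpl, lipoprotein lipase (0.31), and Pou2af1 of plasma cells (0.28). Without C3H/HeJ replicate 2 the difference was 0.17 for Lpl and 0.17 for Pou2af1. That limit was also met by the protocadherins Pcdhgb2 (-0.40) and Pcdha4 (0.14), Tppp3 of ciliated cells (-0.23), Gpm6a of mesothelium (-0.34) and the complement protease C1s1 (-0.35). The early response genes Ier3 (-0.45), Ccn1 (-0.30) and Atf3 (-0.17) met it as well.

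**Figure D4:**
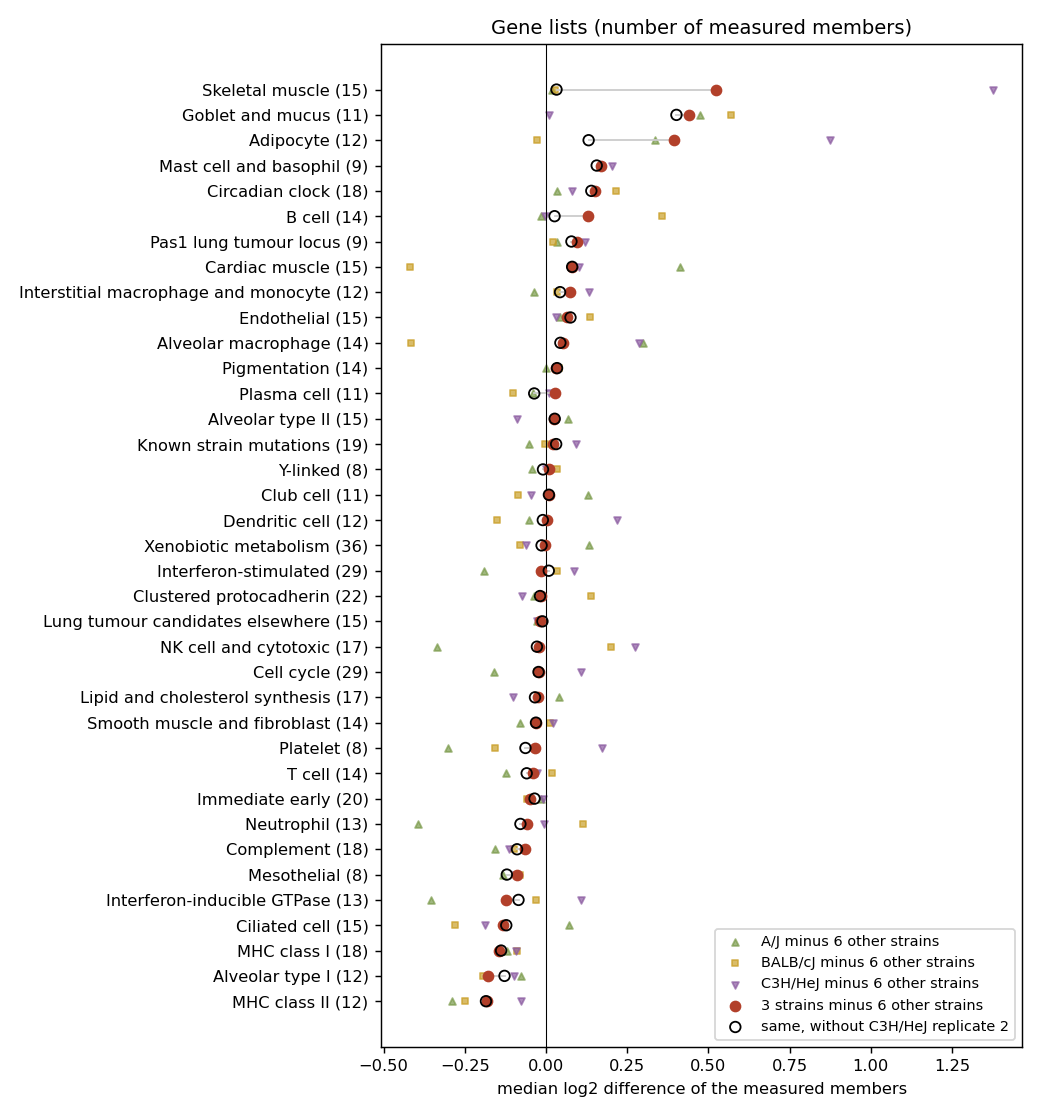
For 37 gene lists, with the number of measured members in parentheses, the horizontal axis gives the median log2 difference from the 6 other strains, for the 3 descendants together, without C3H/HeJ replicate 2, and for each strain alone. The skeletal muscle median of 0.52 fell to 0.03 without that array, and the goblet median of 0.44 was not shared by C3H/HeJ.

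The 3 descendants also differed from each other in individual genes, tested by limma on 27 arrays with an adjusted p under 0.05 and a difference of at least 1. There were 71 such genes between A/J and BALB/cJ (0.351%), 83 between A/J and C3H/HeJ (0.41%) and 86 between BALB/cJ and C3H/HeJ (0.425%). Pairs of a descendant with another strain had 79 to 182, with a median of 119.5 over 18 pairs. Pairs within the 6 other strains had 103 to 199, with a median of 152 over 15 pairs. The pair of C3H/HeJ with MRL/MpJ, at 79, was the 1 across the sets that fell within the range of the descendants. With no minimum difference the ranges overlapped: 936 to 1165 among the descendants, 834 to 2088 across the sets and 872 to 3341 within the others. Pairs that share a strain are not independent, and the order of the 3 kinds of pair was not tested.

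**Figure D5:**
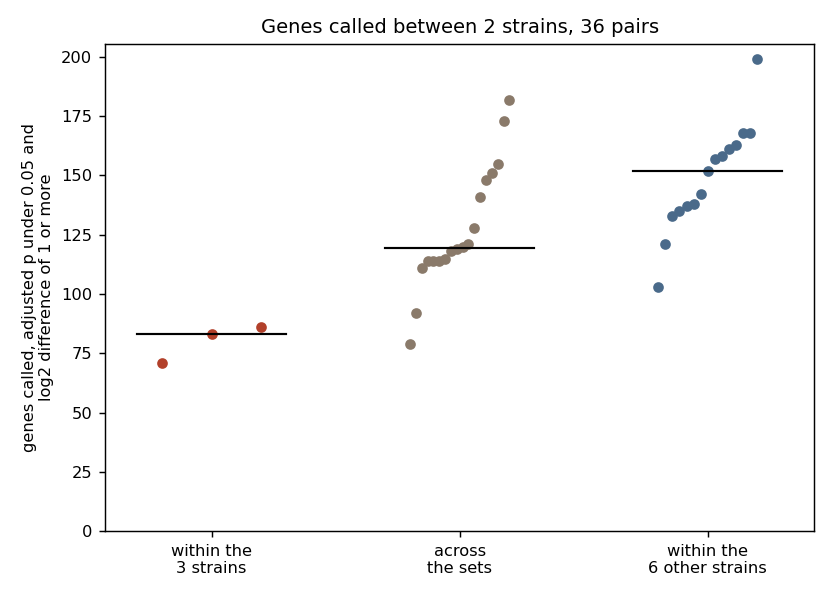
Each point is 1 of 36 pairs of strains and the vertical axis counts genes called between them by limma at an adjusted p under 0.05 and a log2 difference of at least 1, with lines at the medians of 83, 119.5 and 152. The 3 pairs among A/J, BALB/cJ and C3H/HeJ lie at 71, 83 and 86.

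Some genes set 1 descendant apart from its 2 relatives. In A/J the largest such difference was that of H2-T22, a class Ib MHC gene, at a mean of 4.30 against 9.39 in BALB/cJ and 9.35 in C3H/HeJ. Ifi204, an interferon-inducible DNA sensor, stood at 6.19 in A/J against 2.98 and 3.18. Bst1, a cell surface cyclic ADP-ribose synthase, stood at 4.52 in A/J against 7.78 and 7.42. In BALB/cJ Krt79, a keratin also expressed by alveolar macrophages, read 6.47 against 9.08 in A/J and 9.47 in C3H/HeJ, with 7.60 to 8.15 in the other strains. Serpina1b read 7.99 in BALB/cJ, 5.86 in A/J and 5.06 in C3H/HeJ. In C3H/HeJ H19, an imprinted long noncoding RNA, read 8.63 against 5.87 in A/J and 6.07 in BALB/cJ, and 5.24 to 6.13 in the others. Klk1b22, a glandular kallikrein, read 7.43 in C3H/HeJ against 3.44 and 3.58. All 7 passed the F test among the 3 strains, which also chose them.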

How the data were processed

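RNA of the right lung was measured on 27 arrays, 3 mice for each of 9 strains. The authors deposited log2 signals of 21225 probe sets, made with the affy package per the submitters' processing notes. Its version and the normalization are not given in the sources used here. Values were used as deposited. Tests covered the 20239 probe sets to which the probe table gives a gene symbol, and left out 986 unnamed ones. The arrays give 1 probe set per gene and no depth, so the number of arrays and strains limits the precision. Probe sequences were not used, and variants between strains under the probes, which can alter signal, were not tested.

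Each strain was summarised by the mean of its 3 arrays. Then limma 3.58.1 in R 4.3.3 (lmFit, eBayes) compared the 3 strain means with the 6, with Benjamini-Hochberg adjustment over 20239 genes and a call at an adjusted p under 0.05. Differences within the 3 strains and between pairs of strains came from limma on the 27 arrays with 1 mean per strain. The fits were tested on simulated data. The study design states 3 females per strain, so replicates are separate mice. Same-numbered mice of different strains did not deviate together (correlations of -0.272 to 0.276), so numbers do not pair them.

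Genes were named by rule: up to 15 per direction by p among calls and among genes with non-overlapping strain means that differed by at least 0.5, 6 per direction with the widest gap, runs of called neighbours, up to 4 members per list, and up to 3 per strain that set 1 of the 3 apart. Names outside it were chosen after their values were seen. The sets, the lists and the rule were chosen with earlier results of these data known. The array held 564 of 611 list entries, matching 7 through an older symbol. Gene order, upstream sequences and microRNAs came from RefSeq tables of GRCm38.p6; the build used for the arrays is not given. Alternatives changed the normalization, the filter, the prior, the array weights, the unit of replication, a term for run number and the strains or arrays included.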

Additional observations from a re-analysis of the deposited data

Results flagged for a closer look

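Dixon's rule marks a group whose highest or lowest value lies far from the rest, by chance about 1 in 20 groups of independent values. That rate need not hold here, since mice of 1 strain are alike and many genes were chosen by their values. The rule marked 9 of 166 groups of values of the 83 named genes. C57L/J gave 5 of them among the 6 other strains: the mean of Ly6c1 was 10.72 beside 11.82 as the nearest, Ly6d 6.05 beside 7.46, Ly6e 10.91 beside 11.62, Proz 5.34 beside 5.61, and Gpihbp1 8.11 beside 8.76. MRL/MpJ had the lowest H2-Eb1 mean of those 6, at 9.15 beside 9.78. The Tpsb2 mean of 129S1/SvlmJ, 5.61, was the highest of the 6, beside 5.23. C3H/HeJ replicate 2 was the highest of the 9 descendant mice for Myl1, at 9.16 beside 4.56, and for Mcpt4, at 5.09 beside 4.24. The cause of these values was not tested.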

How the results depend on the processing

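Baiap2l1 was called under all alternatives except the one that compared the descendants with 129S1/SvlmJ and MRL/MpJ alone (difference 2.41, adjusted p 0.0577). None of the 83 genes refitted under the alternatives changed sign. Genes without overlap are counted below with a difference of at least 0.5. The counts on strain means were 1 higher and 0 lower. They were 4 and 1 after quantile normalization, 3 and 1 with dim probe sets left out, 2 and 1 with an intensity trend and robust prior, 10 and 25 with the strain as a random block, and 606 and 859 with arrays as units. The replicate block gave 605 and 854. Against 129S1/SvlmJ and MRL/MpJ alone they were 1 (Chil1) and 1 (Pcdhgb5), with 156 genes without overlap, and without DBA/2J and MRL/MpJ 2 and 1 with 65. Leaving out 1 array gave 1 to 4 higher and 0 to 1 lower, 29 to 39 genes without overlap, and 1345 to 2092 that differed among the 3. The counts of calls moved without KK/HlJ replicate 2, C57BL/6J replicates 1 and 3, C57L/J replicate 3, DBA/2J replicate 1, 129S1/SvlmJ replicate 1, and BALB/cJ replicates 1 and 3, through Slc25a51, H2bc7, Tdrd3 and Ighv1-63. Without A/J 67 genes showed no overlap, without BALB/cJ 75 (2 called higher, with Krt79), without C3H/HeJ 78 (1 called lower, Col4a6), without MRL/MpJ 53 (1 lower, Best1), and without C57L/J 1 was called lower (Ly6d). Fewer strains leave fewer means that could overlap; other causes were not tested. Arrays without depth or background files give no limit of detection here.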

Other observations

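Of the 986 probe sets without a gene symbol, none was called between the sets by limma on strain means. The smallest adjusted p was 0.619, 42 had an unadjusted p under 0.05, and 1 had strain means that did not overlap with a difference of at least 0.5.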
